A study of Mus musculus with 10 samples.

Results

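The forkhead box (Fox) genes were taken as the protein-coding genes of the GENCODE annotation of mouse genome build mm9 whose symbol is Fox followed by a letter from a to s and a number. This rule chose 43 of 22380 protein-coding genes by name, with no measured value in the rule, although it was set with earlier results of these data known. At each of them, the length covered by peaks of H3K27me3, trimethylation of lysine 27 on histone H3, was taken from the peak lists of 5 lymphoma lines. Where 5 values stand in a row, they belong to the parental line and then to R100, R500, R1000 and R4000. Covered length was summed over the 2 kb before and the 2 kb after the transcription start site (TSS, the 5′ end of the annotated gene), and a promoter was called covered where peaks held at least 150 bp of that window, which is 3 bins of 50 bp.

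The parental line is a C57BL/6J mouse B-cell lymphoma line of genotype Eμ-Myc and Cdkn2a-/-, in which the immunoglobulin heavy chain enhancer drives Myc in the B lineage and the p16Ink4a and p19Arf tumor suppressors are missing. Culture with mafosfamide, a drug that alkylates DNA, gave rise to R100 at a dose of 100 nM (collected on day 10), R500 at 500 nM (day 18), R1000 at 1000 nM (day 23) and R4000 at 4000 nM (day 37), while the series text gives 34 days for the whole escalation. They share the parental genotype, and all 4 descend from this 1 line, so that they are not independent cases of resistance. All lines were kept without the drug for this assay. Chromatin was immunoprecipitated with an antibody to H3K27me3 and sequenced in 50-bp reads, and the data are 1 list of peak positions for each line.

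Fox genes encode transcription factors that share the winged-helix forkhead domain and bind DNA through it. Many act as switches of cell fate in the embryo, such as Foxa genes in endoderm and Foxc genes in mesoderm. Others work in lymphocytes, where Foxo1 and Foxp1 are needed for early B cell development, or in all dividing cells, as Foxm1 does in mitosis. H3K27me3 is deposited by Polycomb repressive complex 2 and marks silenced developmental genes, often over CpG islands.

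The promoter stretches of 6 members show what the peaks did and did not cover. All are mm9 sequence written 5′ to 3′ along the strand of the gene, with each CpG in capitals, since CpG content was 1 of the sequence features, with GC content, on which covered and uncovered members differed. The Foxc1 and Foxi3 stretches are the 300 bases nearest the TSS of the longest run covered in every line, at chr13:31897801-31898100 (plus strand, 714 to 415 bases upstream) and chr6:70906101-70906400 (plus strand, 424 to 125 bases upstream). The others are the 250 bases before the TSS of Foxq1 (chr13:31649789-31650038, plus strand), Foxb2 (chr19:16948131-16948380, minus strand), Foxo1 (chr3:52072009-52072258, plus strand) and Foxp3 (chrX:7156552-7156801, plus strand).
Foxc1: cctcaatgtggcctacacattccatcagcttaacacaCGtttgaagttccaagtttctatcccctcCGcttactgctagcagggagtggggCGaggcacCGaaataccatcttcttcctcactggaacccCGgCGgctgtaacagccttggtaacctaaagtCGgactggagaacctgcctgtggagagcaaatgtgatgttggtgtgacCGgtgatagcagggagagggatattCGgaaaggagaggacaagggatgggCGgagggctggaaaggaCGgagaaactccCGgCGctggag
Foxi3: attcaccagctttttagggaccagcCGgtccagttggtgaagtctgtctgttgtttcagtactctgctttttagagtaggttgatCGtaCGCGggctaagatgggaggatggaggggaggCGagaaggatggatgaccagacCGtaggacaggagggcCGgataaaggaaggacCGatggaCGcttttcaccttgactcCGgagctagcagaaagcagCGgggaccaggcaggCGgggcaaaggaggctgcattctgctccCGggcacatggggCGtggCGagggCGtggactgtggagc
Foxq1: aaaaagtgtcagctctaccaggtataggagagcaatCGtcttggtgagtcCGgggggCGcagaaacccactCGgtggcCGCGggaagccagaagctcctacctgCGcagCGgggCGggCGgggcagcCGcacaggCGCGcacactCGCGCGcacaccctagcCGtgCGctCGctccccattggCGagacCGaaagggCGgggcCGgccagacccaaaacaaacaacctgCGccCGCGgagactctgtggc
Foxb2: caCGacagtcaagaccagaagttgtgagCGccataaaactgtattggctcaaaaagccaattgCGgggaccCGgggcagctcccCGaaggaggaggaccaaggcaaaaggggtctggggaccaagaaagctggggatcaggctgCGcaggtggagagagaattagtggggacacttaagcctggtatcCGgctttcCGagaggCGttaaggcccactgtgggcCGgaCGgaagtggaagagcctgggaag
Foxo1: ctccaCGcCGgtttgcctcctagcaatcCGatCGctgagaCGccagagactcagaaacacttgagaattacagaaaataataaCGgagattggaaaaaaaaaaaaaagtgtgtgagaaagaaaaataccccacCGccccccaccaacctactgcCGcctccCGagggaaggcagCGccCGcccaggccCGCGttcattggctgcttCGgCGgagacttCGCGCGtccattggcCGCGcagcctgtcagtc
Foxp3: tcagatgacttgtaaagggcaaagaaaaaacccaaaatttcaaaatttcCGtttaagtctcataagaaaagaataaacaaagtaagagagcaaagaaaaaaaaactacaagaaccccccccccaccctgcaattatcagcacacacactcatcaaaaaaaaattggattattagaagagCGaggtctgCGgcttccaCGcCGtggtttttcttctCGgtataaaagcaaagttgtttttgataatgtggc
The Foxc1 and Foxi3 stretches hold 13 and 16 CpGs, and all 300 bases of each lay in peaks in all 5 lists. The Foxq1 stretch holds 26 CpGs at a GC content of 67.2%, and peaks covered 0, 250, 62, 112 and 0 bp of it, so that R100 alone covered it whole. The Foxb2 stretch holds 11 CpGs and was covered over all 250 bp in R100 and R500 and over 0 bp in the other lines. The Foxo1 stretch holds 20 CpGs and the Foxp3 stretch 6, at a GC content of 56.0% and 37.6%, and no list had a peak in either.

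The lists differed in size before any gene was considered. They held 10778, 25180, 21888, 9595 and 6820 distinct peaks from the parental line to R4000, which covered 1.63, 5.04, 4.53, 1.61 and 1.07 Mb. The lists hold no read count, height or p-value, so the depth behind them is unknown and its part in any difference between lines was not tested. Each line has a single list, which leaves no replicate error and no test between lines, and the Wilson 95% intervals below cover the counting of genes only.

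Fox promoters carried H3K27me3 peaks more often than promoters at large in every line. In the parental line 13 of 43 Fox promoters were covered, or 30.2% (Wilson interval 18.6 to 45.1%), against 5.25% of all protein-coding genes. In R100 it was 21 members, or 48.8% (34.6 to 63.2%), against 17.4% of all genes, and in R500 17 members, or 39.5% (26.4 to 54.4%), against 13.3%. In R1000 14 members were covered, or 32.6% (20.5 to 47.5%), against 6.92%, and in R4000 12 members, or 27.9% (16.7 to 42.7%), against 5.5%. The lower end of each interval lay above the share of all genes for the same line. The intervals treat members as independent, although some are neighbors on a chromosome. The set was also chosen with earlier results of these data known, so this comparison is no test. The counts depended on how much coverage was asked for, since a minimum of 500 bp left 6, 15, 14, 9 and 7 members covered from the parental line to R4000. With peaks at least 500 bp wide alone, 5, 10, 10, 4 and 5 members were covered. No share over all genes was taken at either setting, so these counts do not show whether the excess over all genes held there.

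**Figure D1:**
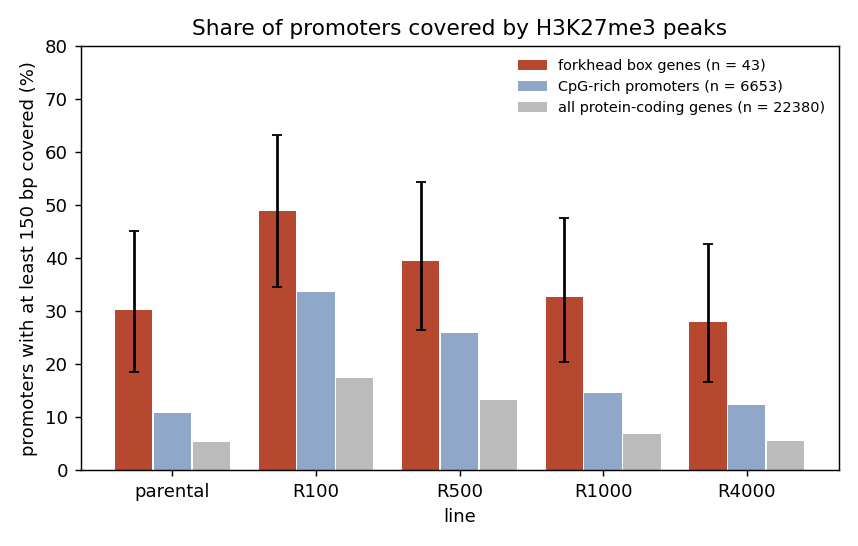
Share of promoters with at least 150 bp covered by H3K27me3 peaks (y axis, %) in each line (x axis), for the 43 Fox genes, 6653 protein-coding genes with a CpG-rich promoter and all 22380 protein-coding genes. Error bars are Wilson 95% intervals over genes; the Fox bar is the tallest in each line and reaches 48.8% in R100.

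Fox promoters were also richer in CpG than promoters at large, a feature known to go with H3K27me3. A promoter was called CpG-rich where, over the 1 kb before and the 1 kb after the TSS, the observed to expected CpG ratio was at least 0.6 and the GC content at least 50%, and 30 of 43 Fox promoters (69.8%) met this against 29.7% of all genes. Among CpG-rich promoters alone, 12 of 30 Fox promoters (40.0%, Wilson interval 24.6 to 57.7%) were covered in the parental line against 10.7% of all CpG-rich promoters. In R100 the shares were 66.7% (48.8 to 80.8%) against 33.6%, and in R500 they were 53.3% (36.1 to 69.8%) against 25.9%. In R1000 they were 43.3% (27.4 to 60.8%) against 14.5%, and in R4000 they were 36.7% (21.9 to 54.5%) against 12.3%. Fox genes thus stayed above the CpG-rich background in each line, by a smaller ratio than above all genes.

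The members divided into a covered set and a set with no call. Of the 43, 10 were covered in all 5 lines (23.3%, interval 13.2 to 37.7%, against 3.17% of all genes), namely Foxa1, Foxc1, Foxc2, Foxd1, Foxd2, Foxd4, Foxi3, Foxj2, Foxo6 and Foxq1. With a minimum of 500 bp 4 members were covered in every line, and with peaks at least 500 bp wide 3 were, for which no share over all genes was taken. A further 22 were covered in no line (51.2%, interval 36.8 to 65.4%, against 79.9% of all genes). Coverage gained in R100 or R500 without the parental line was seen at 8 members (18.6%, interval 9.74 to 32.6%), against 14.3% of all genes. Within CpG-rich promoters the gained share was 26.7% of Fox genes (interval 14.2 to 44.4%) and 26.5% of all. Promoters covered in the parental line cannot be gained, and they were 30.2% of Fox genes against 5.25% of all genes. Among CpG-rich promoters they were 40.0% against 10.7%. The gained shares therefore do not compare promoters still open to gain, for which no share was taken. With a minimum of 50 bp 14 members were gained (32.6%), against 24.5% of all genes. Foxe3 alone had parental coverage that was gone from both R1000 and R4000 (2.33%, interval 0.412 to 12.1%, against 0.782% of all genes). Only promoters covered in the parental line can lose coverage, and among these it was 1 of 13 members and 175 of 1176 genes.

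**Figure D2:**
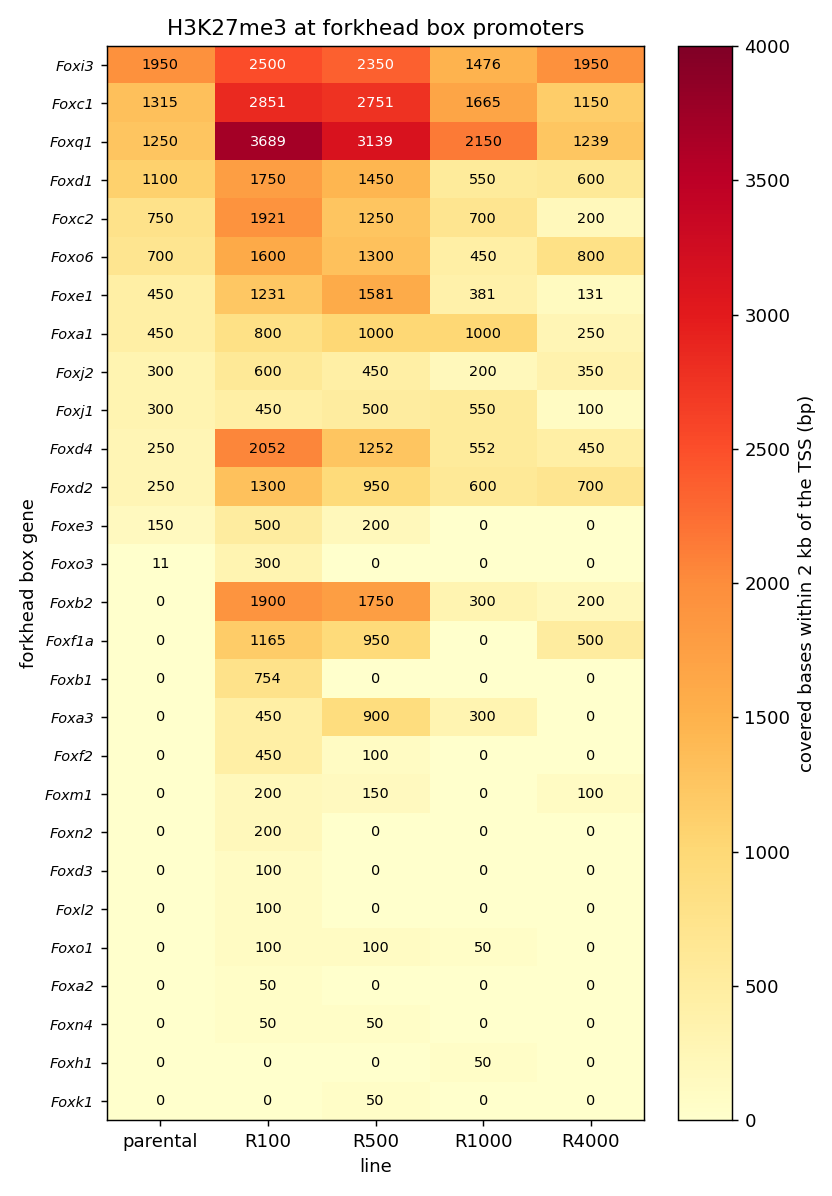
Bases covered by H3K27me3 peaks within 2 kb of the TSS (color and printed number, bp) in each line (columns) for the 28 Fox genes with any covered base in any line, ordered by the parental value. Foxi3, Foxc1, Foxq1 and Foxd1 exceed 1000 bp in the parental line, and the R100 and R500 columns hold the highest values for most genes; the other 15 members were at 0 in every line and are not drawn.

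Among the members of endoderm, gut and lung, the number of 7 covered was 3, 6, 5, 4 and 3 from the parental line to R4000. Of all protein-coding genes 5.25, 17.4, 13.3, 6.92 and 5.5% were covered in the same order, the background for every role group below. Foxq1, a regulator of mucin genes and epithelial state (chromosome 13, 31650039 to 31652839, plus strand), had 1250, 3689, 3139, 2150 and 1239 bp covered. It had the most covered bases of all members in R100, R500 and R1000, and the R4000 value lay 11 bp below the parental one. In R100 a single peak of 3950 bp (chromosome 13, 31648351 to 31652300) ran from -1688 to 2261 bases relative to the Foxq1 TSS, the widest at any member in any line. Foxa1, a pioneer factor of liver, lung and breast (chromosome 12, 58641618 to 58647108, minus strand), had 450, 800, 1000, 1000 and 250 bp. Foxe1, a thyroid factor (chromosome 4, 46356481 to 46359284, plus strand), had 450, 1231, 1581, 381 and 131 bp, and so fell just short of the 150 bp minimum in R4000.

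The other gut and lung members had no base in the parental list. Foxf1a, the mesenchymal factor of lung and gut vessels known as Foxf1 (chromosome 8, 123608286 to 123610851, plus strand), had 0, 1165, 950, 0 and 500 bp, with a gap at R1000 between lines that had peaks. Foxa3, a hepatocyte factor, had 0, 450, 900, 300 and 0 bp, and Foxf2, which acts in gut mesenchyme and palate, had 0, 450, 100, 0 and 0 bp. Foxa2, needed for node, notochord and endoderm, had few peak bases despite a CpG-rich promoter, with 50 bp in R100 and 0 bp elsewhere.

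The mesoderm, vessel and kidney members kept the same 4 of 5 covered in every line, while their summed covered length was 3415, 7822, 6401, 3515 and 2650 bp. Foxc1, which acts in vessels, eye and heart (chromosome 13, 31898515 to 31902504, plus strand), had 1315, 2851, 2751, 1665 and 1150 bp. Foxc2, a lymphatic vessel factor (chromosome 8, 123640071 to 123642792, plus strand), had 750, 1921, 1250, 700 and 200 bp, and its drop of 550 bp from the parental line to R4000 was the largest among the members. Foxd1, a marker of kidney stroma (chromosome 13, 99124200 to 99126660, plus strand), had 1100, 1750, 1450, 550 and 600 bp. Foxd2, also of kidney mesenchyme (chromosome 4, 114578885 to 114581503, minus strand), moved the other way at the high doses, with 250, 1300, 950, 600 and 700 bp, all 4 resistant lines above the parental one. Foxs1, a factor of pericytes and sensory neurons, was at 0 bp within 2 kb in all 5 lines, although within 20 kb of its TSS in either direction peaks covered 1100 bp in R100 and 1000 bp in R500 against a parental value of 0 bp.

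Of 12 neural and sensory members, 4, 6, 5, 4 and 4 were covered from the parental line to R4000. Foxi3, a factor of ear and tooth placodes (chromosome 6, 70906525 to 70911060, plus strand), had the highest parental value of all members, with 1950, 2500, 2350, 1476 and 1950 bp. Its parental and R4000 values were equal, and these were the top values of any member in both lines. Foxb2, expressed in the embryonic brain (chromosome 19, 16946844 to 16948130, minus strand), had the longest coverage of the members with no parental base, with 0, 1900, 1750, 300 and 200 bp. Foxd4 (chromosome 19, 24973455 to 24975799, minus strand) had 250, 2052, 1252, 552 and 450 bp, with all resistant lines above the parental one. It was the 1 covered member whose promoter missed the CpG-rich limits, with an observed to expected ratio of 0.58.

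Foxo6, the brain-enriched member of the FoxO subfamily (chromosome 4, 119939684 to 119959954, minus strand), had 700, 1600, 1300, 450 and 800 bp. Foxe3, a lens factor (chromosome 4, 114597681 to 114598657, minus strand), had 150, 500, 200, 0 and 0 bp, so that its parental value was exactly the minimum. Foxb1, of the mammillary bodies, had 754 bp in R100 and 0 bp in the other lines. Within 20 kb of its TSS in either direction, however, peaks covered 100, 2350, 1900, 300 and 0 bp. Foxi1, Foxi2, Foxp2, Foxd3 and Foxn4 were covered in no line, although Foxp2 and Foxd3 have CpG-rich promoters. Foxi1, Foxi2 and Foxp2 had no covered base even within 20 kb of the TSS in either direction.

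**Figure D3:**
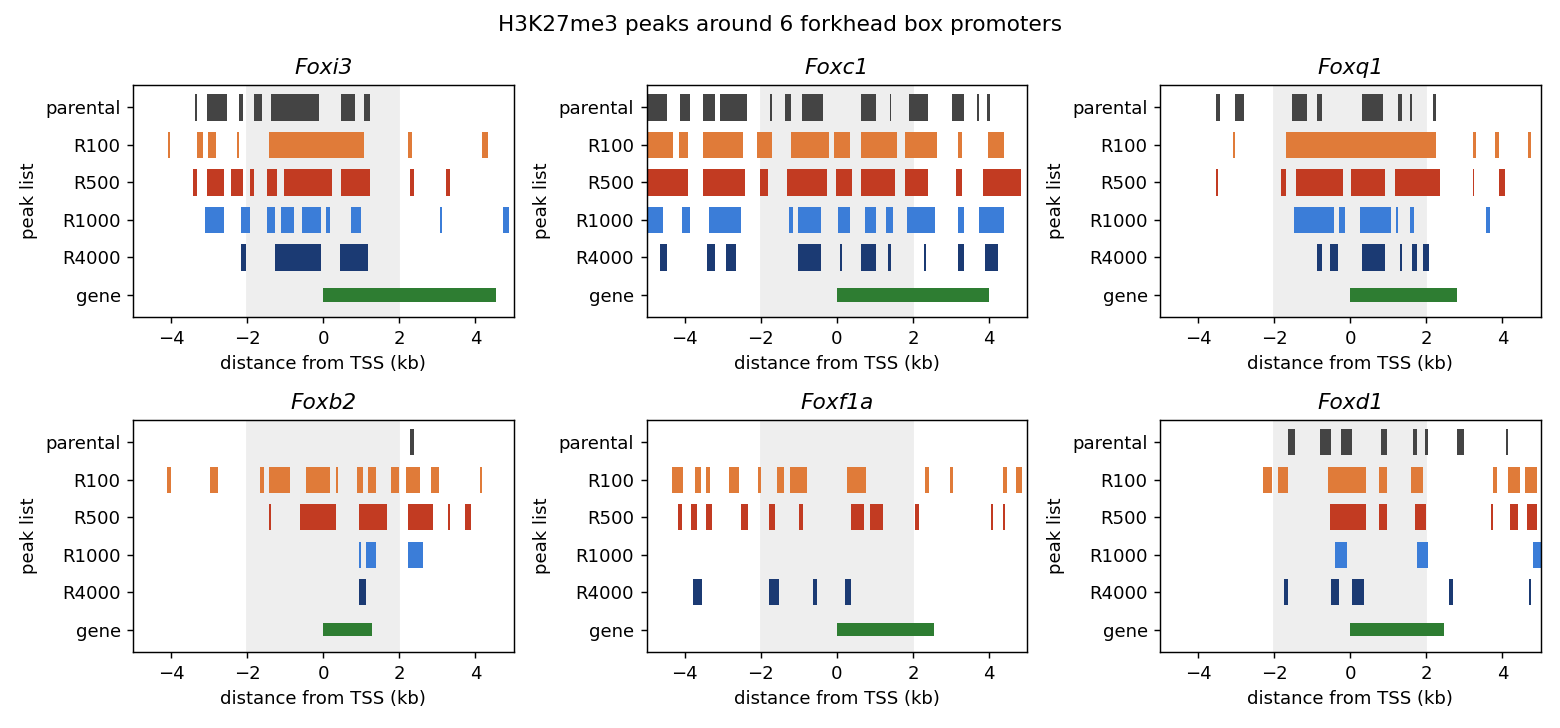
H3K27me3 peaks (bars) of the 5 lists within 5 kb of the TSS of 6 Fox genes (x axis, distance from the TSS in kb along the gene's strand), with the gene in green and the window of 2 kb on both sides shaded. At Foxq1 separate parental peaks give way to 1 peak of 3950 bp in R100, while Foxb2 and Foxf1a have no parental peak in the shaded window.

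Few of the members that work in lymphocytes and thymus had H3K27me3 peaks, as few promoters did at large. Of 6 such genes, 1 was covered in R100, where 17.4% of all genes were, and 0 in each other line, where 5.25 to 13.3% were. Foxo3, a FoxO factor of apoptosis and quiescence, was that gene, with 11, 300, 0, 0 and 0 bp. Foxo1, which directs Rag gene expression and early B cell development, had 0, 100, 100, 50 and 0 bp. These lengths stayed under the minimum although its observed to expected CpG ratio of 0.984 was the highest of the 43 members. Foxp1, another B cell factor, and Foxp3, the factor of regulatory T cells, were at 0 bp within 2 kb of the TSS in all 5 lines, as were Foxo4, on chromosome X, and Foxn1, which thymic epithelium requires. The annotated 5′ end of Foxp1 is CpG-poor, and the starts of its other coding transcripts were also uncovered.

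Among 8 cell cycle and broadly expressed members, 1, 3, 2, 1 and 1 were covered from the parental line to R4000. Foxj2 was covered in all 5 lines, with 300, 600, 450, 200 and 350 bp. Foxm1, which drives mitotic genes, had 0, 200, 150, 0 and 100 bp, and Foxn2 had 200 bp in R100 alone. Foxk1 reached 50 bp in R500, and Foxj3, Foxk2, Foxn3 and Foxp4 were at 0 bp in every line. The annotated 5′ ends of Foxk2 and Foxn3 are CpG-poor, with observed to expected ratios of 0.179 and 0.202. Another coding start of Foxk2 had 100 bp covered in R100, under the minimum. The cilia factor Foxj1 had 300, 450, 500, 550 and 100 bp, the 1 member with its highest value in R1000 among those covered in the parental line, apart from Foxa1, whose R500 and R1000 values were equal. The 4 members of germ line, gonad and early embryo (Foxh1, Foxl2, Foxr1 and Foxr2) were covered in no line, with 50 bp at Foxh1 in R1000 and 100 bp at Foxl2 in R100 as their only covered bases within 2 kb. Around Foxl2, a factor of the ovary, peaks within 20 kb covered 200, 1100, 1950, 100 and 50 bp.

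Summed over all 43 members, peaks covered 9.23, 27.1, 22.2, 11.0 and 8.72 kb of promoter windows. The ratio to the parental line was 2.93 in R100 and 2.41 in R500, below the ratios of 3.86 and 3.31 over all protein-coding promoters. In R1000 it was 1.19 against 1.31, and in R4000 0.945 against 0.94. The direction in these last lines depended on the window and on peak width, since with the 5 kb upstream of the TSS the R1000 ratio was 0.98 and with 1 kb in each direction the R4000 ratio was 1.14. With peaks at least 500 bp wide alone, the ratios were 0.973 in R1000 and 1.17 in R4000. Fox genes are 0.192% of protein-coding genes and held 1.28, 0.975, 0.934, 1.17 and 1.29% of the covered promoter length.

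Length counts by gene followed the same order. In R100 26 members had more covered bases than in the parental line, 0 had fewer and 17 were equal. In R500 21 had more, 1 had fewer (Foxo3, from 11 bp) and 21 were equal. In R1000 10 had more, 8 fewer and 25 were equal, and in R4000 7 had more, 9 fewer and 27 were equal. Equal members had 0 bp in both lines, apart from Foxi3 in R4000. No share over all protein-coding genes was taken for these counts or for the steps below, although summed length over all promoters also rose in R100 and R500. From R500 to R1000 19 members lost covered bases and 2 gained them (Foxh1 and Foxj1), the step with the fewest gains. From R1000 to R4000 7 members gained, namely Foxd1, Foxd2, Foxf1a, Foxi3, Foxj2, Foxm1 and Foxo6, and 11 lost.

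For the 13 members covered in the parental line, the change could be set beside that of the 1176 genes covered there. All 13 were longer in R100, by a median of 781 bp (range 150 to 2439 bp), as were 90.1% of the 1176 genes, which had a median of 650 bp. All 13 were also longer in R500, by a median of 550 bp (range 50 to 1889 bp), again beside 90.1% and a median of 650 bp. In R1000 6 were longer and 7 shorter, with a median difference of -50 bp (range -550 to 900 bp), beside 45.7% longer, 49.7% shorter and a median of 0 bp. In R4000 4 were longer, 8 shorter and 1 equal, with a median of -150 bp (range -550 to 450 bp), beside 24.0% longer, 71.0% shorter and the same median of -150 bp. The ratios of summed length to the parental value, from R100 to R4000, were 2.31, 1.97, 1.11 and 0.859 for these 13 and 2.25, 2.21, 1.04 and 0.715 for the 1176 genes.

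Lists of equal number gave a similar picture of the low-dose lines. With the 6820 widest peaks of each list, 13, 19, 15, 14 and 12 members were covered, and the R100 and R500 ratios of covered length were 2.66 and 2.1. This choice does not make the depth of the libraries equal, and it keeps wide peaks, which the low-dose lists had more of. Peaks at least 500 bp wide numbered 549 in the parental list, 2249 in R100 and 2127 in R500. The part of list size was not tested, and no ratio over all promoters was taken for this choice.

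The bases under peaks were partly the same from line to line. Of the Fox promoter bases covered in the parental line, the resistant lines from R100 to R4000 also covered 82.0, 75.0, 52.2 and 50.4%, against 72.6, 74.7, 47.9 and 34.3% over all promoters. These parental bases made up 28.0, 31.1, 43.9 and 53.3% of the bases covered in these lines, against 18.8, 22.6, 36.6 and 36.5% over all promoters. Of the bases covered in R4000, 85.7% were covered in R100 and 83.4% in R500, against 73.9 and 73.1% over all promoters. R1000 and R4000 shared less with each other, namely 39.9% of the R1000 bases and 50.2% of the R4000 bases, as was the case over all promoters (33.6 and 46.9%).

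In all, 8 members, Foxa1, Foxc1, Foxc2, Foxd2, Foxi3, Foxj2, Foxo6 and Foxq1, had at least 1 base covered in all 5 lines. This common core measured 850 bp at Foxc1, 800 bp at Foxi3 and 700 bp at Foxq1, and 50 to 150 bp at the other 5. At Foxd1 and Foxd4, both covered in every line, no base was shared by all 5. The longest run at Foxq1 was 550 bp, from 312 to 861 bases after the TSS, all of it exonic and with 41 CpGs. At Foxc1 the longest run was 500 bp, from -914 to -415 bases relative to the TSS, and at Foxi3 450 bp, from -574 to -125 bases, and both lay outside exons. The Foxc1 and Foxi3 sequences printed above are taken from these runs.

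Peaks lay on both sides of the TSS. The share of covered Fox promoter bases upstream of the TSS was 48.3, 37.4, 35.6, 44.4 and 37.8% from the parental line to R4000. Exons held 38.1, 48.8, 47.9, 41.8 and 51.8% of the covered bases in the same order, and introns 10.3 to 14.7%. The exonic share of the windows themselves was not taken, nor were these shares over all genes, so no preference for exons can be read from them. In bins of 100 bp, the fullest bin held 13 members (30.2%) in both low-dose lines, 8 members (18.6%) in R1000, and 6 in the parental line and in R4000 (14.0%). In the first such bin of each line, peaks lay at 1.06, 10.8, 5.04, 2.58 and 2.84% of all protein-coding genes from the parental line to R4000. That bin was not at the same distance from the TSS in every line. It was picked where Fox genes were highest, which widens the contrast with all genes. In the parental line the share of all genes was highest 650 bp after the TSS, at 2.18%, and 9.3% of Fox genes had a peak there.

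**Figure D4:**
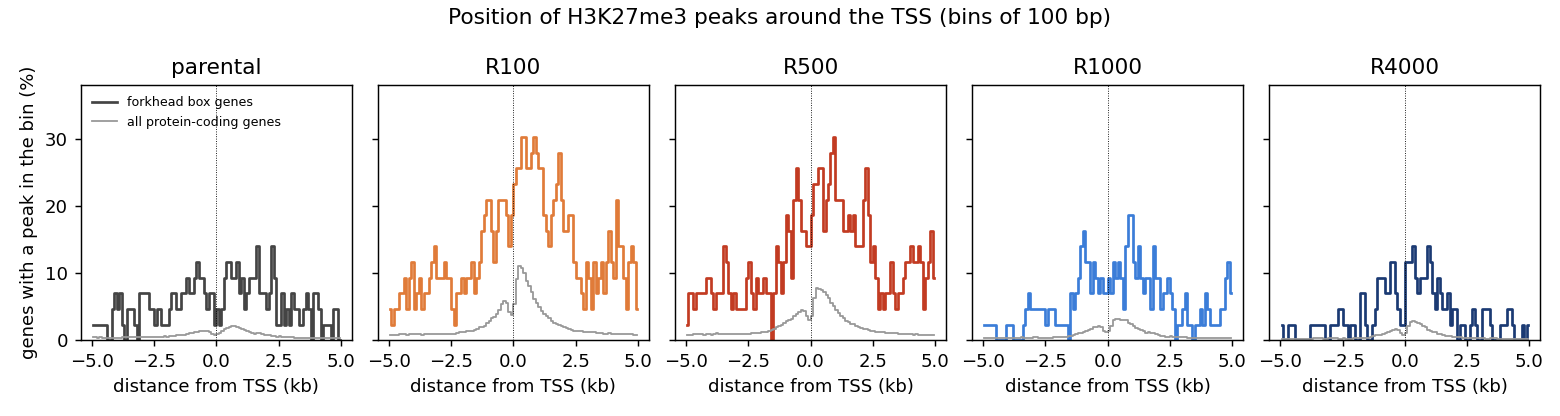
Share of genes with an H3K27me3 peak in each bin of 100 bp (y axis, %) against distance from the TSS (x axis, kb, negative upstream), for the 43 Fox genes (colored) and all protein-coding genes (gray), 1 panel for each line. The Fox curves rise to 30.2% in R100 and R500 and to 14.0% in the parental line and R4000.

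Some members are neighbors on the chromosome. On chromosome 13, Foxq1, Foxf2 and Foxc1 stand in a region of 262 kb (31645039 to 31907504, with 5 kb added on both sides), where peaks covered 5850, 11900, 12000, 7150 and 3950 bp. The outer genes of this region were covered in every line, while Foxf2 between them was covered in R100 alone. On chromosome 8, the 44.5 kb around Foxf1a and Foxc2 (123603286 to 123647792) held 1000, 6000, 4200, 1400 and 1300 bp. The neighbor of this pair, Foxl1, is annotated as a pseudogene in this build and is therefore no member. On chromosome 4, the 29.8 kb around Foxd2 and Foxe3 (114573885 to 114603657) held 966, 2800, 2250, 800 and 750 bp, and here Foxe3 lost its peaks in R1000 and R4000 while Foxd2 rose above its parental length.

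Covered and uncovered members differed in sequence and size. The 21 members covered in at least 1 line had a median observed to expected CpG ratio of 0.794 (range 0.58 to 0.891) and a median GC content of 61.7%, and 20 of them (95.2%) were CpG-rich. The 22 covered in no line had a median ratio of 0.518 (range 0.123 to 0.984) and a median GC content of 55.3%, and 10 of them (45.5%) were CpG-rich. Among those 10 were Foxa2, Foxd3, Foxj3, Foxk1, Foxl2, Foxo1, Foxo4, Foxp2 and Foxp4, so a CpG-rich promoter was not enough for a call. These figures are a description, with no test.

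**Figure D5:**
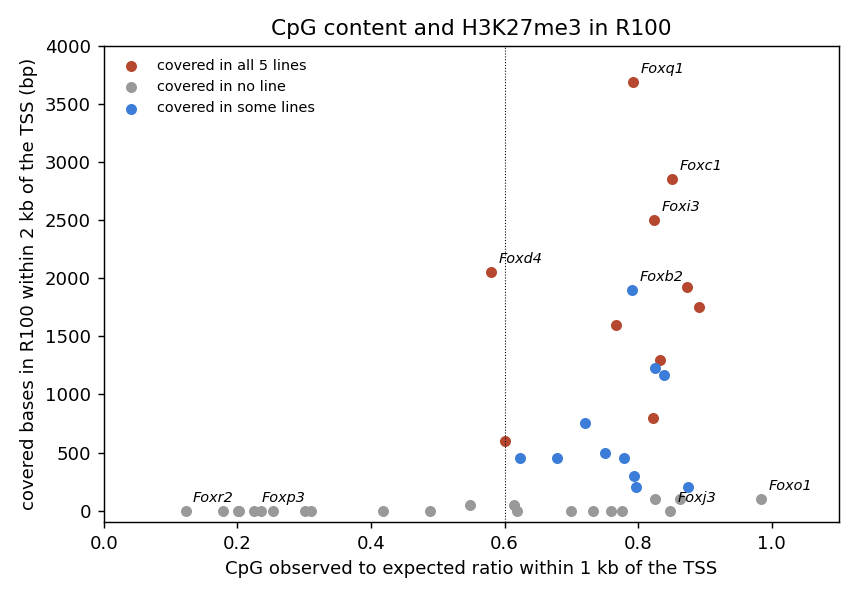
Covered bases in R100 within 2 kb of the TSS (y axis, bp) against the observed to expected CpG ratio within 1 kb of the TSS (x axis) for the 43 Fox genes, colored by whether the promoter was covered in all 5 lines, in some or in none. The dotted line marks the ratio of 0.6; members left of it stay near 0 bp apart from Foxd4, and Foxo1, farthest right, has 100 bp.

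Covered members were also short genes. The median gene length was 3990 bp for the 21 covered members and 14822 bp for the 22 others, and 15 of the 21 against 8 of the 22 were at most 6 kb long. In the parental line 11 of 23 Fox genes of at most 6 kb were covered (47.8%) and 2 of 20 longer ones. Over all protein-coding genes the parental share was 3.91% for those of at most 6 kb and 5.25% for genes of any length. Of 11 Fox genes with a single exon, 8 were covered in the parental line, and of 32 with more exons 5 were. No share over all genes was taken by exon number or for the longer genes alone, so these counts have no background. The 3 single-exon members without a parental call were Foxd3, Foxl2 and Foxs1.

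In the 250 bases before the TSS, E-boxes and a forkhead site were looked for on both strands, since E-boxes bind the B cell factor E2a. The E-box CAGCTG was found in 5 of 43 Fox promoters (11.6%) and in 11.8% of all protein-coding promoters of this length. The E-box CACCTG was found in 9 (20.9%) against 17.0%, and the forkhead motif TGTTTAC in Foxa1 alone (2.33%) against 2.73%. The median number of CpGs in this window was 15 for Fox genes and 8 for all genes.

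The pathway through which FoxO proteins act was read from a list of 8 regulators and 24 targets. Of these 32 genes, 2, 9, 6, 2 and 4 were covered from the parental line to R4000, beside the 5.25, 17.4, 13.3, 6.92 and 5.5% of all genes given above. Among the regulators, which relay or oppose PI3K and Akt signaling, only Inpp5d, the SHIP phosphatase, was covered, with 0, 500, 300, 50 and 250 bp. Akt1, Akt2, Pik3cd, Pik3r1 and Sgk1 were among those covered in no line.

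Among the FoxO targets, Bcl6, the germinal center repressor, was covered in every line, with 650, 1100, 850, 600 and 450 bp. Irs2, an insulin receptor adaptor, was covered in every line too, with 550, 850, 1400, 800 and 950 bp. Klf2, a factor of lymphocyte quiescence and homing, had 0, 400, 400, 50 and 0 bp, and Trib1 had 0, 800, 300, 0 and 0 bp. Cdkn1b, the Cdk inhibitor p27, had 0, 450, 200, 100 and 0 bp. The remaining targets with a call in some line were Pmaip1, Cited2 and Txnip, and 16 of the 24 targets had none.

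Peak positions can be set beside markers of the labelled cell type only as presence of the mark. Of 10 B cell genes, 0, 4, 3, 2 and 1 were covered from the parental line to R4000, against 5.25, 17.4, 13.3, 6.92 and 5.5% of all genes. Cd79b had 0, 1000, 150, 150 and 0 bp, while Cd79a was at 0 bp in every line. Of 14 markers of T, myeloid, erythroid and epithelial cells, 2, 3, 3, 3 and 2 were covered beside the same shares of all genes, namely Cd14, Epcam and Cdh1. Expression was not analysed here, and the part of other cells in the Fox peaks was not tested.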

How the data were processed

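H3K27me3 ChIP-seq was examined in 5 lymphoma lines with 1 peak list each, and RRBS was not analysed here. Values of some single genes are not reported here. The authors called peaks against input in windows tiling the genome with Poisson statistics and deposited positions in base pairs, as chromosome, start and end. The submitters' processing notes name Bowtie and mm9. The study made biological replicates and set a p-value limit for promoter enrichment. Whether the lists pool the replicates or use that limit is not given in the sources used here, and depth is unknown. Entries repeated in a list, 2 of each peak in R100 and R500, were counted once. All peaks on 21 chromosomes lay within mm9 lengths.

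Covered bases were summed with numpy 2.4.6 under Python 3.11.15, tables were handled with pandas 2.3.3, and the sums were tested on simulated data, where 0 of 1000 windows differed from a base-by-base count. Sequence was read with pysam 0.24.0 from NCBIM37, intervals were computed with scipy 1.17.1, and figures were drawn with matplotlib 3.10.9. The role lists use Foxf1 for Foxf1a. The members, lists and rules were chosen with earlier results of these data known. Values in all lines are given for the 8 members with the longest parental coverage, the 8 with the largest gain in R100 and R500, the 6 with the largest loss and the 6 with the largest gain in R4000, lymphocyte and FoxO members, Foxm1 and members within 100 kb of another. Alternatives changed the minimum length, window, peak width, list size and TSS.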

Additional observations from a re-analysis of the deposited data

Results flagged for a closer look

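At 4 members the low-dose lines lay above the parental line and the high-dose lines below it. For Foxc2 the covered length within 2 kb of the TSS differed from the parental value by 1171, 500, -50 and -550 bp from R100 to R4000. For Foxd1 the differences were 650, 350, -550 and -500 bp, and for Foxe1 781, 1131, -69 and -319 bp. For Foxe3 they were 350, 50, -150 and -150 bp. The differences were not tested, since each line has 1 list. The pattern held at 4 of the 13 members covered in the parental line (30.8%) and at 380 of the 1176 protein-coding genes covered there (32.3%), and 0 members showed the reverse.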

How the results depend on the processing

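Of 100 values for counts and ratios under alternatives, 75 stayed within a fixed fold limit of the main value, 21 moved beyond it and 4 reversed. The cause was not tested. Values within the limit could still differ, as the R100 count of 21 became 14 with the 5 kb upstream of the TSS. A count could not reverse, and the 4 reversed values are ratios. With a minimum of 500 bp, 6 members were covered in the parental line, 9 in R1000, 7 in R4000, 4 in all 5 lines and 0 in the parental line and neither R1000 nor R4000. With the 5 kb upstream of the TSS 7 members were called in the parental line, 7 in R1000 and 6 in all 5 lines, and the ratios of covered length were 0.98 in R1000 (reversed) and 0.619 in R4000. With 1 kb on both sides the parental count was 8, the count lost from R1000 and R4000 was 0, and the R4000 ratio was 1.14 (reversed). With peaks at least 500 bp wide the counts were 5, 10, 10, 4 and 5 from the parental line to R4000, 3 in all 5 lines and 0 lost, and the ratios were 4.51, 3.62, 0.973 and 1.17, of which those of R1000 and R4000 reversed. With a minimum of 50 bp, 14 members were gained in R100 or R500. Apart from this count and the CpG-rich promoters, no share or ratio over all genes was taken under the alternatives. CpG-rich promoters only, and leaving out Foxc1, Foxq1 or Foxi3, were alternatives chosen after seeing the data, and neither moved a count or ratio beyond the fold limit. Over the whole gene instead of the promoter window, 43 of 110 values of named genes moved. No Fox windows overlap, so counting overlapping members once changed nothing. No paired analysis was possible because each line has 1 list and no result comes from a test. Unknown depth limits every comparison between lines.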
